A study of Homo sapiens with 2 samples.

Results

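CLSTN2, which encodes the postsynaptic cadherin calsyntenin-2, was examined together with the other genes for synaptic and neuronal adhesion proteins in the map of TCF3::HLF-bound chromatin contacts. The list holds 44 genes of 20033 protein-coding genes, named by family but chosen with earlier results of these data known. The families are neurexins and neuroligins, calsyntenins, contactins and contactin-associated proteins, leucine-rich repeat proteins and receptor tyrosine phosphatases. Latrophilins, teneurins, IgLON proteins and other members of the immunoglobulin superfamily complete the list. Not every family is complete: relatives such as TENM1, NLGN3 and CADM4 are in a comparison list in the closing section. An interaction was assigned to a gene when either of its 5-kb bins overlapped the gene or the 10 kb on each side of it. By this rule, 498 of the 49245 interactions in the deposited list (1.01%) belonged to the 44 genes.

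The data are HiChIP, which joins chromatin immunoprecipitation to proximity ligation and counts read pairs that connect distant DNA at sites bound by a protein. HAL-01 is a leukemia cell line with t(17;19), the translocation that fuses TCF3 to HLF, and the cells also expressed Cas9GFP and were selected for stable loss of wild-type TCF3, so that an antibody against E2A (TCF3) recovered the fusion protein. There were 2 replicates of this 1 group, which the authors merged before interactions were called. No second condition, no control antibody and no replicate value enters the list, so every number here describes 1 merged library of 1 cell line, with no replicate error and no test between groups. The list carries no RNA values, so neither the loss of TCF3 nor the expression of any of the 44 genes can be read from it.

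Adhesion proteins of neurons hold pre- and postsynaptic membranes together and help to set which cells connect. Neurexins and the receptor phosphatases sit mainly on the presynaptic side and bind neuroligins, LRRTM proteins and calsyntenins across the cleft, whereas teneurins bind latrophilins and FLRT proteins join that complex. Many of these genes are among the longest in the genome because of very large introns. HLF belongs to the PAR bZIP factors, which bind palindromic sites such as TTACGTAA, and the fusion keeps that DNA binding domain.

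The 44 genes differed widely, and a few carried most of the interactions. TENM4 had 74 interactions, TENM2 52, NEGR1 47, CLSTN2 41, NRXN3 39, CNTNAP2 34, NRXN2 34 and PTPRD 29. These 8 genes held 350 of the 500 gene-interaction pairs (70%). At the other end, 10 genes had 0 interactions: NLGN2, CNTN3, CNTNAP5, LRRTM1, LRRTM3, LRFN5, FLRT2, ADGRL3, CADM2 and LSAMP. The list contains only bin pairs past the q-value threshold of 0.01, so a 0 says that no contact of the gene passed, not that there was none.

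**Figure D1:**
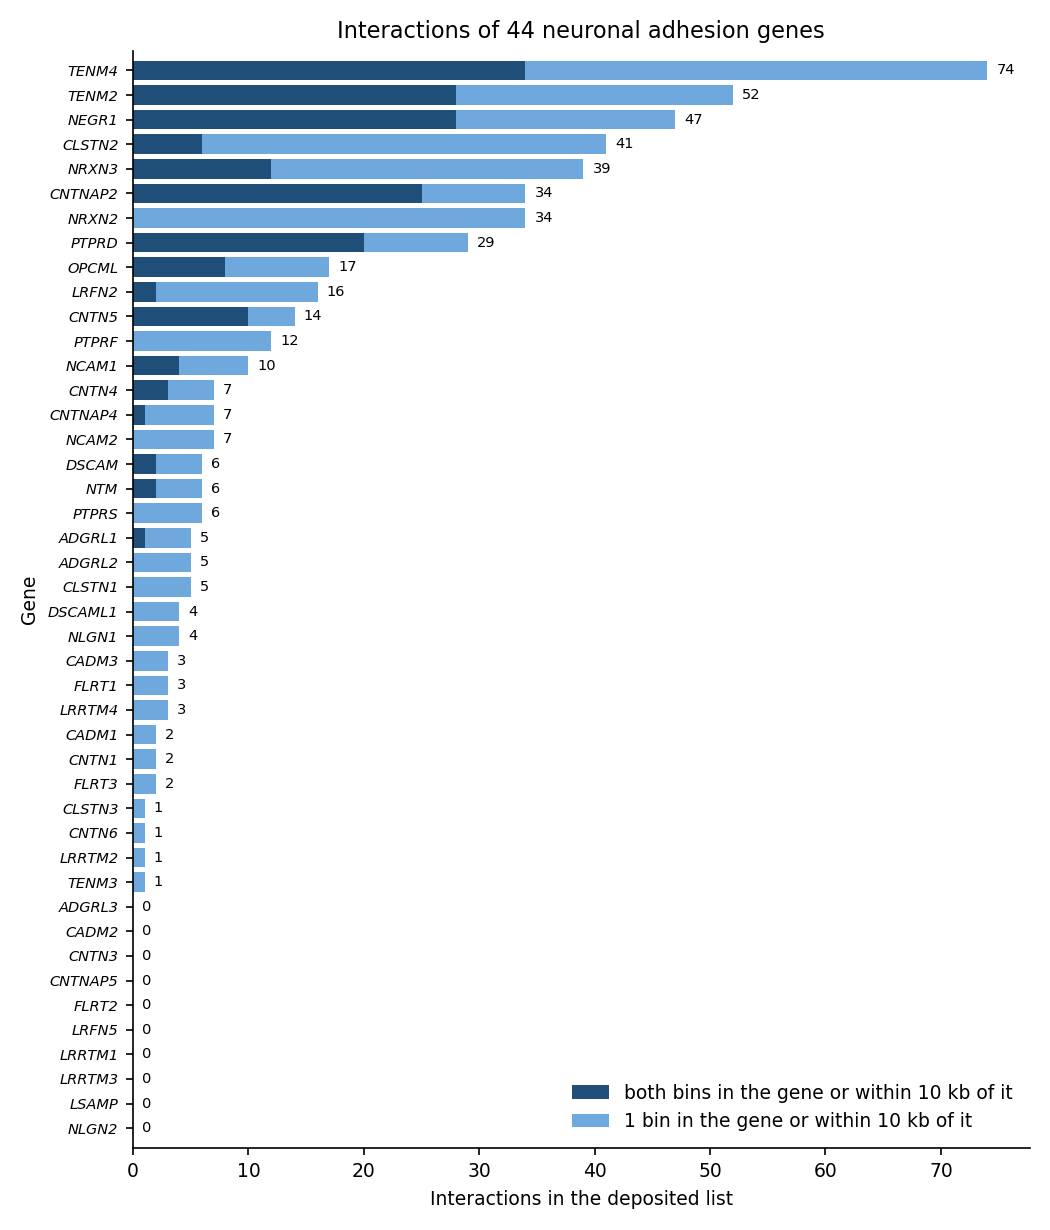
Number of interactions in the deposited list for each of the 44 genes, with the part whose bins both lie in the gene or within 10 kb of it in dark blue and the part with 1 such bin in light blue. TENM4 leads with 74, CLSTN2 has 41, 6 of them within the gene, and 10 genes are at 0.

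The most used of the anchor bins are described here by their sequence. An anchor bin is a 5-kb bin that takes part in at least 1 interaction. In or within 10 kb of the 44 genes there were 365 such bins, 299 of them used once, and 12 were used by 10 or more interactions. These 12 lay in or beside TENM4 (34 and 15 interactions), NRXN2 (20 and 10), CLSTN2 (19), CNTNAP2 (16), NEGR1 (15 and 12), TENM2 (12, 10 and 10) and PTPRD (10). Of the 12 bins, 9 held an exact HLF motif, searched as TTACGTAA or TTATGTAA on both strands. For each of the 9, 100 bases of hg38 around the first motif of the bin are given 5′ to 3′ on the strand of the motif, in order of the number of interactions, with the motif in capitals. None of the 9 stretches overlaps an exon of the gene, and all 9 carry the TTATGTAA form.
NRXN2, + strand, chr11:64639625-64639724: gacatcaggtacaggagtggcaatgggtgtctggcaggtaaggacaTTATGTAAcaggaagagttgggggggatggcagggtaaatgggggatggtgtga
CNTNAP2, + strand, chr7:148051164-148051263: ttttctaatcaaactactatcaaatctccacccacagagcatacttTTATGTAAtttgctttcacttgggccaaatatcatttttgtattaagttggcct
NEGR1, - strand, chr1:72231721-72231820: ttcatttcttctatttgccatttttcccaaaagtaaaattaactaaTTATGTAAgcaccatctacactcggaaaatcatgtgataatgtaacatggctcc
TENM4, - strand, chr11:79174104-79174203: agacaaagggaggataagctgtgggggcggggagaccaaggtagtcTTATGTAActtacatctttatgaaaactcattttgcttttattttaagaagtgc
NEGR1, - strand, chr1:71789507-71789606: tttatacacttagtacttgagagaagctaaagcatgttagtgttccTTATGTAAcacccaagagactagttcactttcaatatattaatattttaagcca
TENM2, + strand, chr5:166992312-166992411: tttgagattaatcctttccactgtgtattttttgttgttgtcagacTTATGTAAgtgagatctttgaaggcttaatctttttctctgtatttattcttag
PTPRD, - strand, chr9:9902448-9902547: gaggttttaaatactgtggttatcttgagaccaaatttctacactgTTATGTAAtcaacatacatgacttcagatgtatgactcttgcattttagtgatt
TENM2, + strand, chr5:166981595-166981694: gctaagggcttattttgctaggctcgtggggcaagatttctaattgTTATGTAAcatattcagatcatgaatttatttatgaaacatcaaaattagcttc
TENM2, + strand, chr5:167556502-167556601: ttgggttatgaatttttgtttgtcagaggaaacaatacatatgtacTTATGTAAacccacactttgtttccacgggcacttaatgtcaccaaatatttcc

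The 3 of these bins without an exact match were the leading bins of TENM4 (chr11:79405001-79410000) and CLSTN2 (chr3:139930001-139935000) and the second bin of NRXN2 (chr11:64625001-64630000).
The 250 bases before the start of CLSTN2 in RefSeq (GRCh38.p14) are shown because they span the border between the leading bin of the gene and the bin that holds its start. They hold no exact HLF motif and have a GC content of 74.8%, with 27 CpG dinucleotides. Among all 35116 RefSeq promoter windows of this length, 0.94% held an exact motif, and RefSeq windows were matched for 35 of the 44 genes.
CLSTN2 promoter, + strand, chr3:139934935-139935184: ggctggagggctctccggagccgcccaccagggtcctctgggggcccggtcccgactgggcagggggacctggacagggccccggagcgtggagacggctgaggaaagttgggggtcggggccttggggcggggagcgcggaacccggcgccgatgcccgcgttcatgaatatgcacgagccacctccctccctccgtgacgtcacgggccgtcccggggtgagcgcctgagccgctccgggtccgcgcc

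CLSTN2 had contacts that fanned out from its 5′ end. The gene runs on the plus strand of chromosome 3 from 139935185 to 140577397 (642.2 kb), and its leading bin ended 185 bp before the annotated start. This bin took part in 19 of the 41 interactions of CLSTN2, and 16 of the 19 ran upstream, away from the gene. The bin with the start itself took part in 1, with 26 read pairs to a bin 125 kb away inside the gene.

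The contact count is the number of read pairs that join both bins of an interaction. The strongest contact of CLSTN2, chosen by the smallest P value of the interaction caller, joined the leading bin to chr3:139745001-139750000, 185 kb upstream, with a contact count of 85 (exact Poisson 95% interval, 67.9 to 105). Its P value from FitHiChIP was 7.85e-61, the smallest among the interactions of the 44 genes, and this count was 3.54 times the median of all listed interactions at that distance. The other contacts of the leading bin had counts from 17 to 47, the next 3 being 47, 43 and 41, at distances of 550, 360 and 435 kb. The intervals cover counting error only and are too narrow where read pairs were duplicated, because duplicates were kept.

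Outside CLSTN2, 6 interactions led to NMNAT3, which encodes an enzyme of NAD synthesis, with contact counts of 17 to 43, and 4 led to ZBTB38, which encodes a zinc finger protein that binds methylated DNA, with counts of 16 to 34. Of the 4, 2 ended in a bin with a start site of ZBTB38, with contact counts of 34 and 32 at 1325 and 1225 kb. NMNAT3 lies upstream and ZBTB38 downstream of CLSTN2. No start site of NMNAT3 lay in the bins contacted. The NMNAT3 contacts with counts of 43, 32, 22 and 17 ended in the same bin, which took part in 16 interactions of the list.

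Only 6 of the 41 interactions of CLSTN2 had both bins in the gene or within 10 kb of it, the lowest share among the 8 genes after NRXN2. NRXN2 is only 117 kb long, and pairs closer than 50 kb were not called. Relative to gene length, CLSTN2 had 63.8 interactions per Mb, against a median of 14.1 in the 100 protein-coding genes outside the list that were closest to it in length, and 90% of those 100 were lower. The 18 interactions that reach CLSTN2 only through the 10 kb beside it decide much of this: with the gene body alone there were 23 interactions, 35.8 per Mb and a ratio of 2.8 to the median of similar genes, in place of 4.51.

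**Figure D2:**
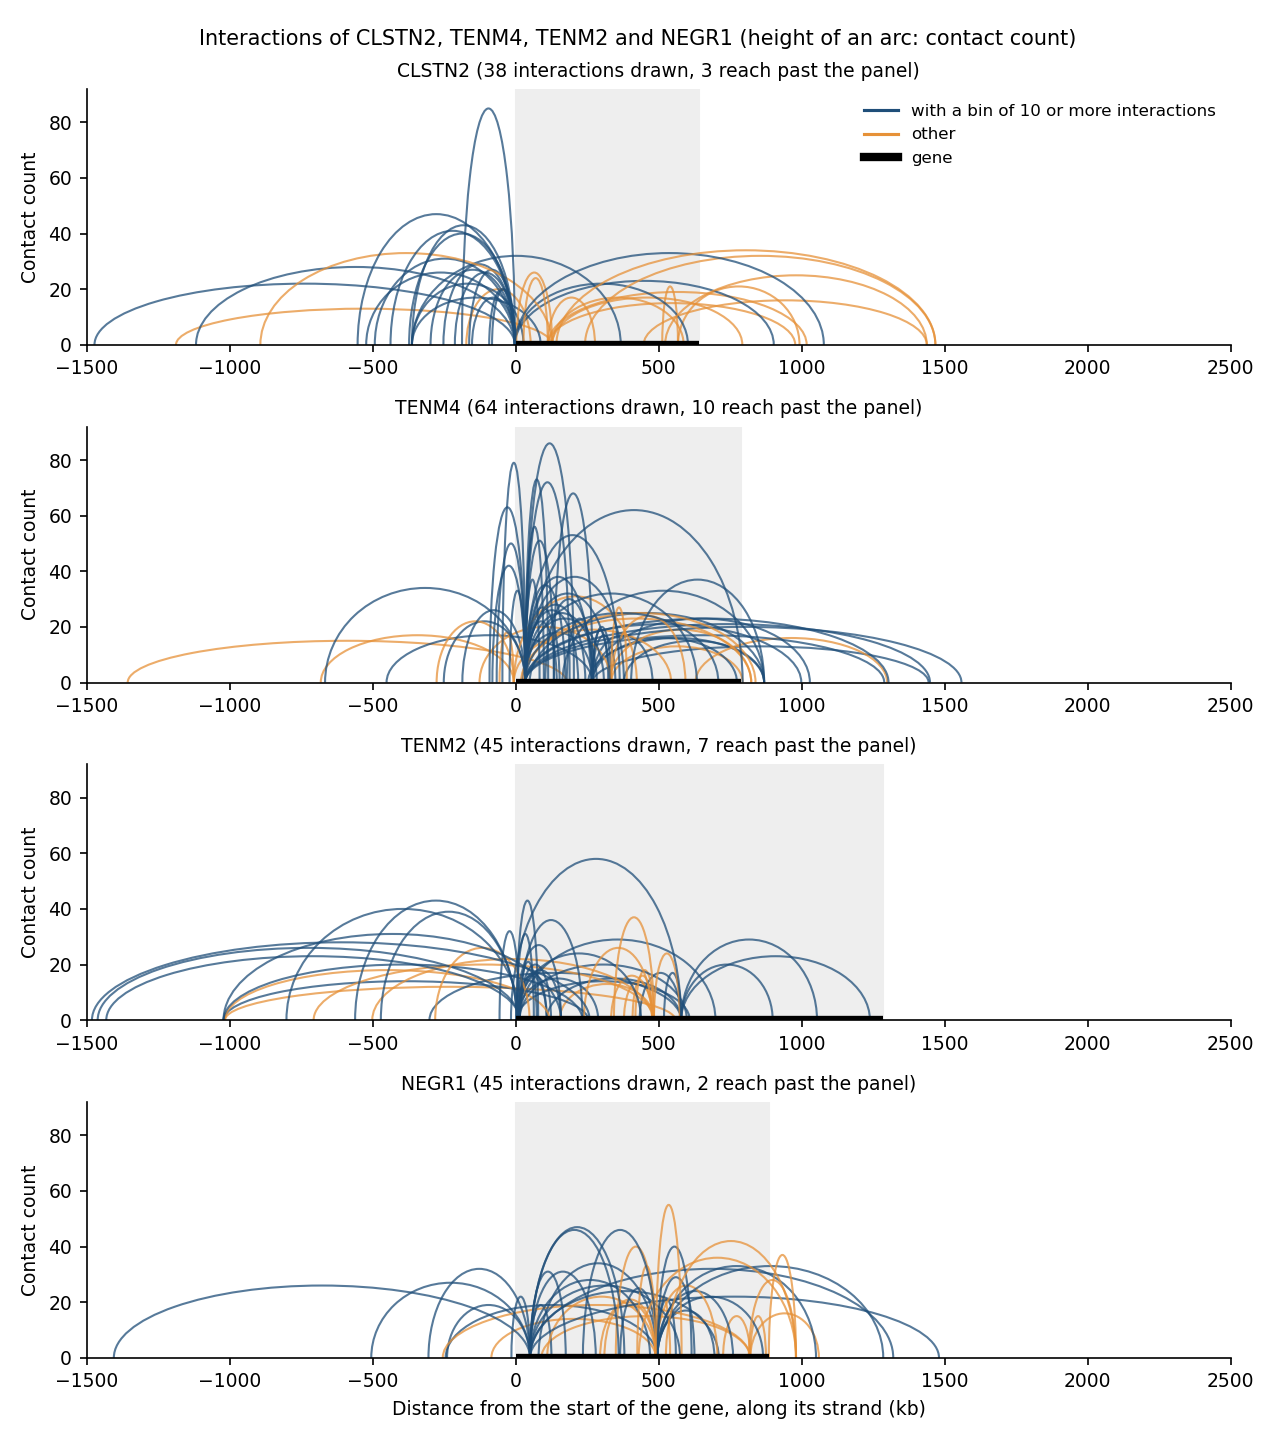
Interactions of CLSTN2, TENM4, TENM2 and NEGR1 as arcs, placed by the distance in kb from the start of the gene along its strand, with the contact count as the height of an arc. Blue arcs have a bin with 10 or more interactions, orange arcs do not, and the black bar on grey is the gene. At CLSTN2 the arcs leave the 5′ end mainly upstream, whereas at TENM4 and NEGR1 many stay in the gene.

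The other calsyntenins had few interactions. CLSTN1, which acts in axonal transport, had 5 with contact counts of up to 44, and 2 of the 5 led to the neighboring CTNNBIP1, an inhibitor of beta-catenin. The contact of 44 used a bin outside the gene that also lay within 10 kb of PIK3CD. With bins away from other genes, 3 interactions of CLSTN1 were left. CLSTN3 had 1, with a contact count of 14. Per Mb this came to 52.6 for CLSTN1, against a median of 41.7 in genes of similar length, and to 34.2 for CLSTN3, against 34.3. Both were thus close to genes of their length, and CLSTN2 was the only calsyntenin at 2 or more times that median.

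Teneurins are large transmembrane proteins that pair across the synapse. Among the families of the 44 genes they had the most interactions, 127 in the 3 genes on the list, but very unevenly. TENM4 on chromosome 11 (78652829 to 79441030, minus strand) had 74 interactions, 93.9 per Mb against a median of 15.2 in genes of similar length, and 94% of those genes were lower. A single intronic bin 33.5 kb into the gene took part in 34 of the 74. Of its 34 partners, 20 lay in the gene or within 10 kb of it and 28 were used by no other interaction. The contact counts of this bin had a median of 33.5 and ran from 17 to 86. The count of 86 (68.8 to 106), to a bin 170 kb farther into the gene, was the highest of all interactions of the 44 genes, with a P value of 1.85e-52 and a sumCC (the sum over a merged group of adjacent significant bin pairs) of 134.

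There were 6 interactions between TENM4 and NARS2, which encodes the mitochondrial asparaginyl-tRNA synthetase and lies next to TENM4. In 5 of the 6 the partner bin held a start site of NARS2, with contact counts of 37, 33, 25, 16 and 15 at 465, 705, 820, 615 and 490 kb. Only 1 of the 74 interactions had a bin with a start site of TENM4, and that start site lay 633.5 kb into the gene. A bin just upstream of the gene, 3971 bp from its start, took part in 6. Within 10 kb of a start site of TENM4 lay a bin of 9 of the 74.

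TENM2 on chromosome 5 (166979029 to 168264157, plus strand) had 52 interactions, 40.5 per Mb against a median of 5.84 in genes of similar length. Its 3 leading bins lay 3.5 kb, 13.5 kb and 578.5 kb into the gene and took part in 10, 12 and 10 interactions. The strongest contact joined the third of these bins to a bin just upstream of the gene, 595 kb away, by 58 read pairs (44 to 75; P value, 5.39e-41). There were 3 interactions that ended in DOCK2, which encodes an activator of RAC in lymphocytes, with contact counts of 14 to 41. All 3 ended in the same bin of DOCK2, which took part in 38 interactions of the list.

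TENM3 had 1 interaction, with a contact count of 20 over 2580 kb, and 9% of the genes of similar length were lower. Thus 2 teneurins were among the genes with the most interactions and the third was near the bottom. Of the latrophilins, adhesion receptors that bind teneurins, ADGRL1 and ADGRL2 had 5 interactions each and ADGRL3 had 0. Since ADGRL1 is only 58.45 kb long, its 5 interactions amounted to 85.6 per Mb, 2.51 times the median of genes of similar length, whereas the 5 of ADGRL2 (687.8 kb) amounted to 7.27 per Mb, a ratio of 0.457.

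Among the neurexins, presynaptic receptors, NRXN2 was the densest of all 44 genes. It is 117 kb long, lies on the minus strand of chromosome 11 (64606174 to 64723197) and had 34 interactions, 291 per Mb against a median of 25.8 in genes of similar length, and 98% of those were lower. The leading bin took part in 20 of the 34 and held an exon. None of the 34 interactions had both bins in the gene, but pairs closer than 50 kb were not called, which leaves little room at this length. The strongest contact, with a count of 78 (61.7 to 97.3) and a P value of 6.77e-45, joined the leading bin to a bin 100 kb away beyond the 3′ end of the gene, in a merged group with a sumCC of 321. A second contact of the same group ended in a bin with a start site of SLC22A11, which encodes a renal organic anion transporter, with a count of 56 over 80 kb.

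Start sites of other genes lay in the partner bins of 7 of the 34 interactions of NRXN2. Start sites of SF1, a splicing factor, were in the partner bins of 2 interactions (29 and 33 read pairs). A start site of MAP4K2, a kinase, was in 1 (41), and the same bin overlaps MEN1, the tumor suppressor of multiple endocrine neoplasia. In all, 30 of the 34 interactions had a bin with 10 or more interactions. Without such bins 4 remained, and the ratio to genes of similar length fell to 1.34, below 2-fold.

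NRXN3 (1698 kb, chromosome 14) had 39 interactions, 23 per Mb against a median of 5.37. In contrast to NRXN2, no bin in or near it reached 10 interactions, and its 2 leading bins, side by side 797.1 and 802.1 kb into the gene, had 7 each. One of them gave the strongest contact, with a count of 60 (45.8 to 77.2) over 125 kb and a P value of 9.98e-37. There were 7 interactions with ADCK1, a mitochondrial kinase gene just upstream, with contact counts of 14 to 33, and 3 with STON2, an endocytic adaptor gene, 2 of them with its start site. The neuroligins, the postsynaptic partners of neurexins, had few: NLGN1 had 4 interactions, 4.45 per Mb against 11.7 in genes of similar length, and NLGN2 had 0.

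Of the receptor tyrosine phosphatases, which bind postsynaptic proteins and signal in the axon, PTPRD had 29 interactions in 2299 kb (12.6 per Mb, 2.35 times the median of genes of similar length), of which 20 had both bins in the gene. Its leading bin, with 10 interactions, lay 710.5 kb into the gene. PTPRF, only 98.48 kb long, had 12 interactions (122 per Mb, 3.95 times that median), all of which had a bin within 10 kb of a start site of the gene and led out of it. Pairs closer than 50 kb were not called, which leaves little room within a gene of this length. A single bin 12.3 kb into PTPRF took part in 9 of the 12, with contact counts of 14 to 41. PTPRS had 6, at 1.33 times the median, and 4 of the 6 used a bin that also lay within 10 kb of KDM4B.

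The IgLON proteins, GPI-anchored immunoglobulin proteins of the neuronal surface, were as uneven. NEGR1 on chromosome 1 (71395943 to 72282539, minus strand) had 47 interactions, 53 per Mb against a median of 11.9 in genes of similar length. Of the 47, 28 had both bins in the gene. Its most used bins lay 50 kb and 495 kb into the gene (15 and 12 interactions), and the bin next to the latter had 9. The strongest contact, with a count of 55 (41.4 to 71.6) over 90 kb and a P value of 3.09e-30, used that neighboring bin. LSAMP, which at 1337 kb is longer, had 0.

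OPCML (17 interactions) and NTM (6) are adjacent on chromosome 11 and gave the only contacts between 2 of the 44 genes. A bin in NTM (chr11:132150001-132155000) was joined to 2 bins in OPCML, with contact counts of 25 (16.2 to 36.9) over 910 kb and 22 (13.8 to 33.3) over 955 kb. These counts were 1.04 and 0.957 times the median of all interactions at the same distances. None of these 3 bins held an HLF motif.

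Contactins are GPI-anchored and pair with the contactin-associated proteins along axons and at synapses. CNTNAP2, with 2305 kb the longest of the 44 genes, had 34 interactions, of which 25 had both bins in the gene. A single intronic bin 1936.5 kb into the gene took part in 16 of them, with counts of up to 52. CNTN5 had 14, and its strongest contact, with a count of 50 (37.1 to 65.9) over 310 kb, had a P value of 9.33e-36. Per Mb, CNTNAP2 (14.8) was at 2.75 times and CNTN5 (10.5) at 1.85 times the median of genes of similar length. CNTN4 and CNTNAP4 had 7 each, CNTN1 2, CNTN6 1, and CNTN3 and CNTNAP5 0.

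Leucine-rich repeat proteins, mostly postsynaptic organizers, had few interactions. LRFN2 had 16 (81.7 per Mb, 2.66 times the median of genes of similar length), FLRT1 and LRRTM4 3 each, FLRT3 2 and LRRTM2 1, and the remaining 4 had 0. The interactions of FLRT1, FLRT3 and LRRTM2 used only bins that also lay within 10 kb of another protein-coding gene, such as MACROD2, which contains FLRT3. They cannot be assigned to 1 gene.

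In the remaining immunoglobulin superfamily, NCAM1 had 10 interactions, 5 of them through a bin with one of its own start sites 296.2 kb into the gene. NCAM2 had 7, and its strongest contact had a count of 44 (32 to 59.1) at 1215 kb and a P value of 2.74e-27. All 7 left the gene, and 5 of the 7 involved a bin with 10 or more interactions. DSCAM had 6, DSCAML1 4, CADM1 2 and CADM2 0. CADM3 had 3, which at 31.7 kb gave 94.6 per Mb, 2.99 times the median of genes of similar length, but each used a bin within 10 kb of another gene, and with the gene body alone 1 was left.

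As a list, the 44 genes stood near other genes in how often they were contacted. At least 1 interaction was found for 34 of 44 (77.3%), beside 64.3% of all protein-coding genes and 83.8% of those of at least 50 kb, and the average share in the genes of similar length was 84.8%. Of the 38 genes of at least 50 kb, 12 (31.6%) had 2 or more times the median density of genes of similar length, beside 29.1% of all genes of at least 50 kb, and 16 (42.1%) had 0.5 times or less, beside 32.8%. The genes nearest to the limits were PTPRD (2.35) and CNTN5 (1.85), and DSCAML1 (0.485) and DSCAM (0.503).

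The median over the 44 genes of the ratio to the mean of genes of similar length was 0.434 (95% order-statistic interval, 0.188 to 0.747), beside 0.49 over all genes. The share at 2-fold or more was thus near that of all genes, and the spread among the 44 genes, from 0 to 11.3 times the median of similar genes, was wide. For genes of more than about 0.8 Mb, the 100 genes closest in length spanned a wide range, from 855.6 to 2474 kb for PTPRD and CNTNAP2, which limits what similar length means there.

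**Figure D3:**
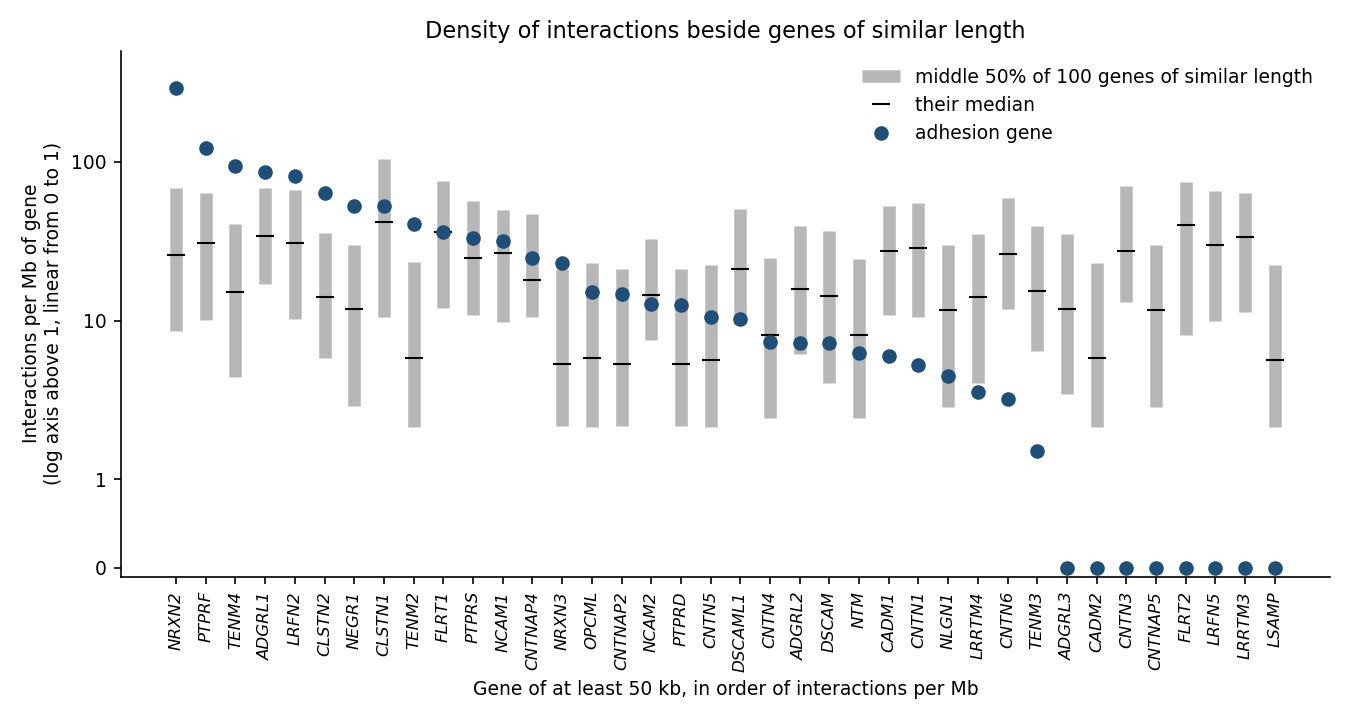
Interactions per Mb of gene for the 38 genes of at least 50 kb (blue points), beside the median (black line) and the middle 50% (grey bar) of the 100 protein-coding genes closest in length, on an axis that is logarithmic above 1. NRXN2 stands at 291, above the grey bar, and 8 genes are at 0.

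The interactions of the 44 genes spanned longer distances than the list as a whole. Their median distance was 385 kb (95% interval, 300 to 450), against 255 kb for all interactions, and 24.1% spanned over 1 Mb, against 13.7%. The intervals in this paragraph take interactions as independent, although many share a gene or a bin. The comparison is with all interactions, not with those of genes of similar length. Interactions with both bins in the gene had a median of 165 kb and those with 1 bin there 677.5 kb. The contact count was not higher: its median was 23 (22 to 24), beside 24 in the whole list, with a range of 11 to 86. A count of at least 50 was reached by 20 (4.02%), beside 2.83% of all interactions.

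**Figure D4:**
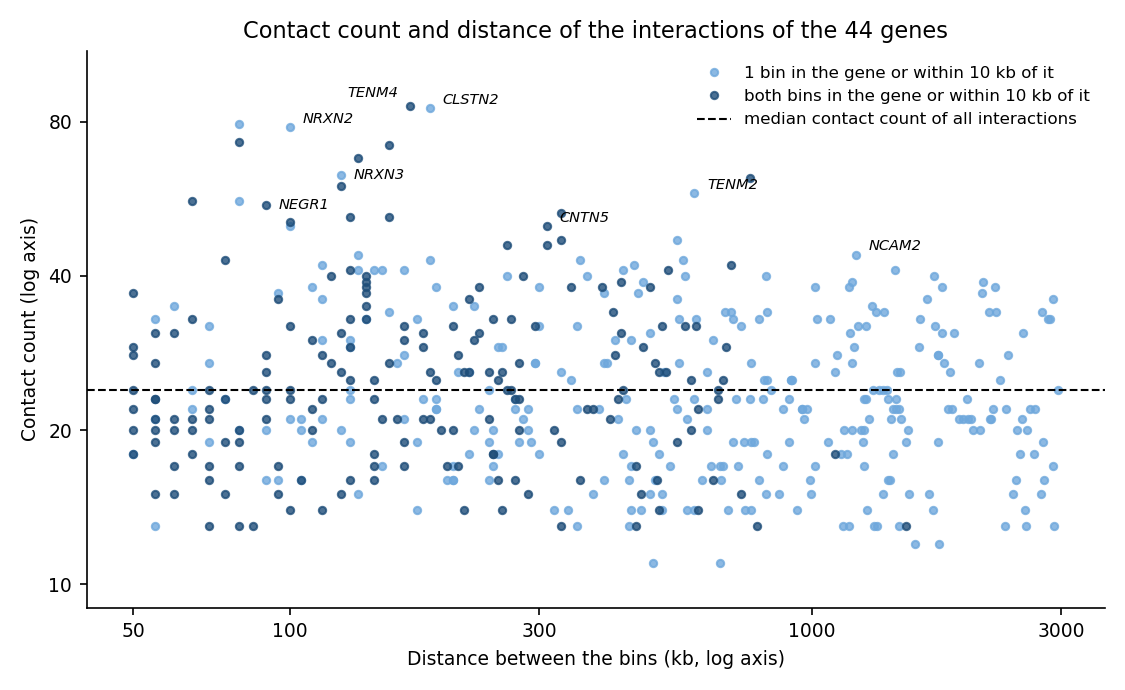
Contact count against the distance between the bins (both axes logarithmic) for the interactions of the 44 genes, with the strongest contacts of 8 genes labelled and the median of all listed interactions, 24, as a dashed line. Counts above 50 come mainly from distances under 200 kb, and the TENM2 contact labelled at 595 kb has a count of 58.

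Of the 500 gene-interaction pairs, 186 (37.2%) had both bins in the gene or within 10 kb of it and 314 led out of it. Of these 314, 118 met another protein-coding gene in the partner bin and 28 a start site of one. A bin with a start site of the gene itself was used by 14 pairs (2.8%), in 8 genes, and a bin within 10 kb of one by 127 (25.4%), in 25 genes. The share with an own start site was 12.6% over the pairs of all protein-coding genes and 5.88% over those of the genes of similar length. Of the 365 anchor bins, 51 held an exon of the gene.

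Interactions were also compared with the sequence beside each gene. An interaction that joined a gene to its flank was counted in both densities, so they are not independent. The median ratio of density in and near the gene to density in the 500 kb on each side was 0.947 over the 42 genes for which it is defined, and 21 of the 42 were higher inside. The ratio was 3.94 for NRXN2, 2.47 for NEGR1, 1.48 for TENM2, 1.41 for CLSTN2, 1.39 for TENM4 and 0.355 for NRXN3. The 500 kb on each side of NRXN3 were thus denser than the gene. The 500 kb on each side held 66 interactions per Mb at TENM4 and 44 at CLSTN2, and among the 44 genes the highest such value was 69, at CLSTN1.

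Bins with many interactions took a larger part here than in the whole list, mainly through a few genes. A bin with 10 or more interactions took part in 45.8% of the interactions of the 44 genes, beside 32% of all interactions. Of these 228 interactions, TENM4 had 57, TENM2 39, NRXN2 30, NEGR1 27 and CLSTN2 23. Only 12 of the 365 anchor bins of the 44 genes (3.29%) were such bins, beside 2.1% of all 53535 anchor bins. Without interactions of such bins, TENM4 had 17, TENM2 13, NEGR1 20 and CLSTN2 18 interactions, and the ratios to genes of similar length were 2.46, 2.22, 2.88 and 2.98. CNTNAP2 (1.74) and PTPRD (1.75), like NRXN2, were then below 2-fold, NRXN3 (4.34) was not, and CNTN5 (2.34) passed it. CNTN5 also passed with a contact count of at least 20 (2.18) and with distances up to 1 Mb (2.02).

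The HLF motif was found in 138 of the 365 anchor bins (37.8%; Wilson 95% interval, 33 to 42.9). Bins 25 kb away that were no anchors held it in 33.9% (30.2 to 37.7), so the intervals overlapped. In bins with 1 interaction the shares were 36.1% and 34.1%, and with 2 to 9 interactions 38.9% and 35.2%. In the 12 bins with 10 or more, 75% (46.8 to 91.1) held a motif, against 4 of 22 neighboring bins (18.2%; 7.31 to 38.5). The same classes over all anchor bins gave 66.7% and 29%, so the share in the 12 bins was near that of much used bins anywhere in the list.

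Both bins held a motif in 93 of the 498 interactions (18.7%), beside 16.2% of all interactions, and at least 1 bin did in 336 (67.5%), beside 66.8%, so these shares were near those of the whole list. A match to these letters is a description of the sequence in a bin of 5 kb and does not show a bound site. At TENM4 and CLSTN2, whose leading bins hold no exact match, 7 of the 34 and 8 of the 19 partner bins held one. The share was 33.5% in the partner bins of all 44 genes and 28% in the bins 25 kb away from them. Of these partners, 28 of the 34 and 16 of the 19 had 1 interaction, and the share in all partner bins with 1 interaction was 23.2%. With so few bins and classes that differ, nothing particular to these partners can be read from the counts.

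**Figure D5:**
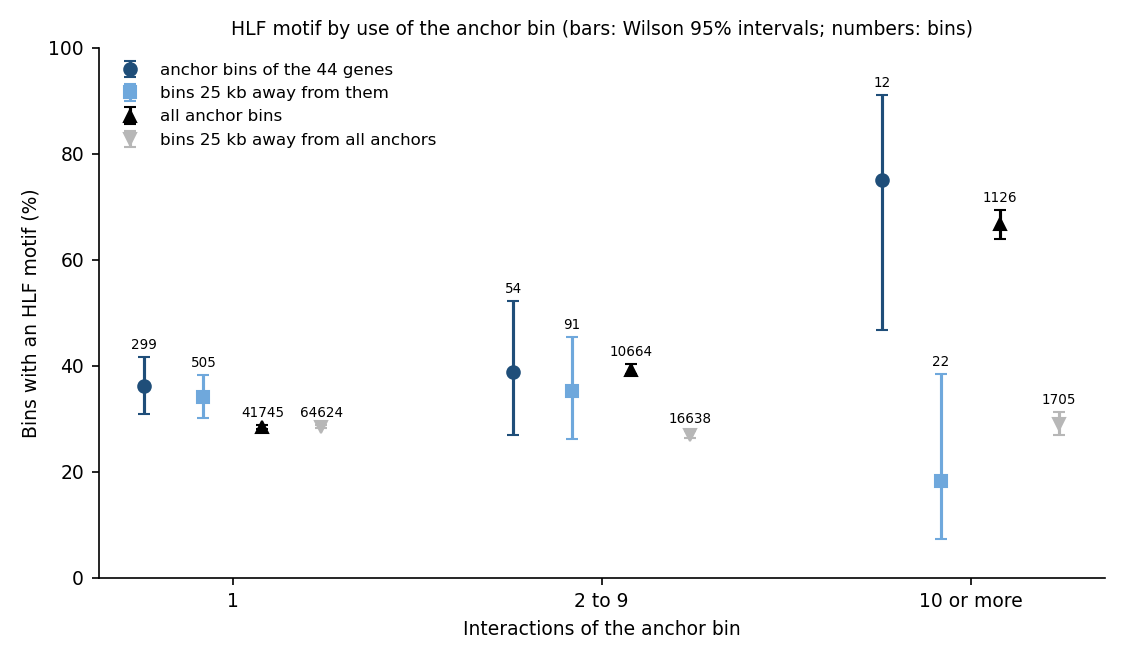
Share of 5-kb bins with an exact HLF motif (percent, with Wilson 95% intervals) by the number of interactions of the anchor bin, for anchor bins of the 44 genes, bins 25 kb away from them, all anchor bins and bins 25 kb away from those; the number above each point is the number of bins. With 10 or more interactions the share is 75% at the 44 genes and 66.7% over all anchors.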

How the data were processed

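TCF3::HLF-HiChIP was carried out in TCF3-KO HAL-01 cells in 2 replicates of 1 group. The authors trimmed reads with Trim Galore 0.6.6, merged the replicates, aligned to hg38 with BWA-MEM, extracted pairs with pairtools, left out its dedup step, called reference peaks with MACS2 and called interactions with FitHiChIP (version not given in the sources used here) at 5-kb resolution, for distances of 50 kb to 3 Mb. The deposited counts are read pairs per bin pair and their sum over a merged group, without normalization. The deposited p-values and q-values come from the caller's background for distance and coverage, with q under 0.01. The deposited fraction, which gives how much of a merged group was significant, supports no result. As depth, the listed interactions held 1268490 read pairs in sum, 12852 of them at the 44 genes. The lowest listed count, 7, has an exact Poisson 95% interval of 2.81 to 14.4, and the median, 24, one of 15.4 to 35.7.

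Genes, exons and start sites came from GENCODE release 44, which is on the build of the list (0 bins past a chromosome end). Each gene was set beside the 100 other protein-coding genes closest in log length. Density is interactions per Mb of gene. For the ratio counts only genes of at least 50 kb were used. With 1 merged library nothing was tested: called means 2-fold or more, or 0.5-fold or less. HLF motifs were exact matches on both strands, and flanking bins lay 25 kb away and were no anchors. Shares have Wilson 95% intervals and medians order-statistic intervals. Sequences came from hg38 and, for promoters, from RefSeq.

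The 44 genes, the families and the comparison lists were chosen with earlier results of these data known. Named in detail were CLSTN2, the 8 genes with the most interactions, the 8 with the largest ratio to genes of similar length, the 8 whose strongest interaction had the smallest P value, and genes that contact another of the 44. The overlap count and the ratio were tested on simulated data. Alternatives are given in the closing section. Software was matplotlib 3.10.9, pyfaidx 0.9.0.4, scipy 1.17.1, pandas 2.3.3 and numpy 2.4.6 under Python 3.11.15.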

Additional observations from a re-analysis of the deposited data

How the results depend on the processing

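The number of interactions of the 44 genes fell from 498 to 318 with a q-value under 1e-05, to 270 without interactions of bins used by 10 or more, and to 38 in merged groups alone (2 or more bin pairs). With merged groups alone, 10 genes had an interaction, the median ratio to the mean of similar genes was 0 and the 2-fold counts could not be computed, because the median of similar genes was then 0. It was 344 with 20 or more read pairs, 378 within 1 Mb and 465 in the gene body alone. It was 495 with each merged group counted once and 481 with bins away from other genes, both settings chosen after seeing the data. In all alternatives that gave them, 10 to 13 of 38 genes were at 2-fold or more, beside 28.3% to 30.5% of all genes. At 0.5-fold or less were 14 to 17, beside 32.7% to 34.2% of all genes. These counts and shares are for genes of at least 50 kb. The median ratio ran from 0.392 to 0.584 outside the merged groups. The motif share was 64.1% in bins widened by 1 bin on each side (68.6% in flanking bins) and 1.1% for TTACGTAA alone (1.16%). With 1 Mb on each side the median ratio to the surroundings was 0.726 in place of 0.947. No paired analysis was possible because the authors merged the replicates of the single group before interactions were called; for the same reason no value without 1 replicate could be computed. At a contact count near 20 the counting interval spans more than 2-fold, so differences between single contacts of that size were not detectable at this depth.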

Other observations

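A list of further synaptic adhesion genes, which holds relatives of the 44 such as TENM1, NLGN3 and CADM4, was set beside them. Both lists were chosen with earlier results of these data known. A difference between them can therefore not be read as a trait of the 44. Of 40 further genes, among them the SLITRK, LRRC4, MDGA, SDK and ROBO families, 21 had at least 1 interaction (52.5%; genes of similar length, 72.8%). Relative to the median of genes of similar length, 2 of the 22 of at least 50 kb (9.09%) were at 2-fold or more. The share of all genes of that size was 29.1%. At 0.5-fold or less were 13 (59.1%), beside 32.8%. The most was 23 interactions, in SDK1, a homophilic adhesion protein of the retina. MDGA1, an inhibitor of neuroligins, was at 6.96 times the median of genes of similar length.

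Adhesion genes of leukocytes, among them integrins, selectin and its ligand, and CD2 family genes, split more sharply. Of 25, 17 had at least 1 interaction (68%; genes of similar length, 67.6%). Of the 10 of at least 50 kb, 5 (50%) were at 2-fold or more, beside 29.1% of all genes of that size. The other 5 (50%) were at 0.5-fold or less, beside 32.8%. Pooled over all genes of a list, there were 85.7 interactions per Mb in the leukocyte list, 18.6 in the 44 genes, 7.14 in the 40 further synaptic genes and 52.2 over all protein-coding genes. The lists differ in gene length, with medians of 33.09, 384.9, 64.58 and 27.47 kb, and their difference was not tested.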
